A study of Mus musculus with 96 samples.

Results

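The genes described here encode the proteins of the cytoplasmic ribosome, and their messenger RNA was measured in the cerebellum, cortex and hippocampus of male C57BL/6J mice by bulk RNA sequencing. Members were the rows of the deposited count table whose symbol is Rpl or Rps followed by a number and, in some, the letters a, l, al, x or l1, together with Rpsa, Rplp0, Rplp1 and Rplp2. The rule used names only and no measured value, and it gave 83 of 35486 rows, 31 for the small subunit and 52 for the large subunit. Of these, 80 passed the filter on low counts in all 29 comparisons. The other 3 are the paralogs Rpl10l, Rpl3l and Rpl39l: Rpl10l had no count in any of the 96 libraries, Rpl39l had counts in 6 libraries and Rpl3l in 55. Rps3a1, Fau and Rack1, which also belong to the ribosome, are among the genes that fall outside the rule by their symbols.

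The ribosome is built from a small subunit, which decodes the messenger RNA, and a large subunit, which joins amino acids and carries the stalk of acidic P proteins that recruits translation factors. Ribosomal protein genes are known for being expressed at high and balanced levels in every cell, and most of their messages start with a tract of C and U bases through which growth signals control their translation. In neurons, ribosomes are also found in dendrites and axons, where local translation takes place.

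The first experiment used 29 mice, each giving 1 library from each region, in 8 groups. Naive mice were labelled 2 months (4 mice; the series design text gives 3 months for the young mice) or 18 months (3 mice). Mice of 18 months received PBS (4 mice) or young plasma (5 mice) on 7 consecutive days, and so did mice of 22 months (3 mice each). Mice of 19 months received PBS (4 mice) or young plasma (3 mice) on 24 consecutive days, called long treatment here. The second experiment had 9 hippocampus libraries from 18-month-old mice, 4 with PBS and 5 with plasma for 7 days. The study asked how injected young plasma acts on different regions of the ageing brain. Each animal gave 1 library per region, and nothing in the labels says that animals were pooled. Sample titles also carry a second number, which the labels do not explain. No such number is shared between the groups compared for age, for PBS against no injection or for long plasma against long PBS. Those comparisons cannot be told apart from it. Plasma and PBS groups of 18 and of 22 months share it in part, and all mice of experiment 2 have the same one.

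Libraries held between 851288 and 23768385 counts (median 8889509), and 7 of 96 held under 2500000. The neuronal markers matched the labelled regions; for example, Gabra6, of cerebellar granule neurons, had a cerebellar median of 405 counts per 1000000 counts (CPM) and a median of 0 in cortex and hippocampus. In 7 libraries, 2 of cortex and 5 of hippocampus, the summed markers of the library's own region lay more than 3 median absolute deviations low, and each result was also computed without them. Choroid plexus RNA varied between dissections: Ttr, the transthyretin gene, ran from 1.67 to 4609 CPM among the 29 hippocampus libraries. In bulk tissue, fewer cells of a type and less RNA per cell cannot be told apart.

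Together the 83 members took 11129 CPM on average, or 1.12% of the counts in the median library. In CPM, which is not divided by length, the highest were Rpl3 with a mean of 523 CPM, which sits near the peptidyl transferase centre, Rpl4 with 451 CPM and Rpsa with 320 CPM. Per kilobase of the annotated principal transcript, the order changed: Rps29 led with 469 CPM per kilobase, followed by the stalk protein gene Rplp1 (429), Rpl3 (387), Rps27 (365) and Rpl41 (356), which encodes the smallest ribosomal protein. Among the 80 tested members the lowest per kilobase were Rps15a (13.9), Rpl7l1 (17.2) and Rpl36al (24.7). The value for Rps15a rests on a principal transcript of 5179 bases, against 390 bases for Rps29, so it depends on which transcript is taken. Rows with pseudogene symbols (6 rows ending in -ps) summed to 8.96 CPM. Reads from unlisted processed copies of these genes and from the close paralogs can be shared between rows, and the counting tool is not given in the sources used here.

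The start of some of these genes shows a sequence feature that the rule did not use. RefSeq promoter windows (GRCm38.p6, 250 bases before to 50 bases after the annotated start) were found for 63 of the 83 members. An unbroken run of at least 8 C or T bases beginning within 10 bases of the start was present in 21 of the 63 (33.3%), against 10.7% of 27025 genes with such windows. A gene with several windows counted once, and as having the feature if any window had it. The windows below span 30 bases around the start, on the gene's strand, with the longest such run in capitals where it has at least 5 bases. The first 6 are those of the 8 largest falls in the cerebellum against the cortex that had an entry. The others, picked after their values were seen, are Rps27 with its paralog Rps27l, members that did not pass or rose there, and Rpl15, whose run was 17 bases.
Rpl12, chr2:32961702-32961731, plus strand: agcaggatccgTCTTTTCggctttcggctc
Rpl41, chr10:128549149-128549178, minus strand: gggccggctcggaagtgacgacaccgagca
Rps2, chr17:24720053-24720082, plus strand: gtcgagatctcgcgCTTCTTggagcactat
Rpl37, chr15:5116603-5116632, plus strand: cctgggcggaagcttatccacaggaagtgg
Rps21, chr2:180257369-180257398, plus strand: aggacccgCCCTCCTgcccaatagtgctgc
Rps15, chr10:80292421-80292450, plus strand: cagagctcgcgataactgcgcaagcgcagc
Rps27, chr3:90213629-90213658, minus strand: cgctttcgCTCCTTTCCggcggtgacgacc
Rps27l, chr9:66946076-66946105, plus strand: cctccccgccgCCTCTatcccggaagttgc
Rpl18, chr7:45718061-45718090, plus strand: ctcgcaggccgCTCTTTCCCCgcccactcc
Rps9, chr7:3704031-3704060, plus strand: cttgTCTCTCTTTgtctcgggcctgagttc
Rps15a, chr7:118116128-118116157, minus strand: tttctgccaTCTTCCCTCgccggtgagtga
Rpl7l1, chr17:46782637-46782666, minus strand: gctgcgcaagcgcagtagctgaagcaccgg
Rpl15, chr14:18270967-18270996, minus strand: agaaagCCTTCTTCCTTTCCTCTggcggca
The runs of the first 6 were 7, 3, 6, 3, 7 and 3 bases long, against 9 for Rps27, which also fell, and 10, 9 and 9 for Rpl18, Rps9 and Rps15a, which did not pass. In Rps27l the run of 5 bases is the longest that begins within 10 bases of the start; a longer run of C and T begins farther upstream and ends inside the window, in lower case. Rpl7l1 has no run of 5 bases. A match describes letters in this window and not a start site used in brain.

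Short motifs were searched on both strands of the same 300 bases. CCGGAAG, the core bound by ETS factors such as GABP, was found in 25 of 63 members (39.7%) and 9.93% of all 27025 genes with windows. GGGCGG, the SP1 core, was found in 39 (61.9%) against 38.2%, AAGATGGC, a YY1 motif, in 6 (9.52%) against 3.19%, and TATAAA in 7 (11.1%) against 15.7%. CCGGAAG and AAGATGGC can overlap by their shared AAG. The CCGGAAG match is shown in capitals for 3 members: in Rps27l and Rpl31 it lies just after the start, and in Rpl41 it lies upstream.
Rps27l, chr9:66946070-66946105, plus strand: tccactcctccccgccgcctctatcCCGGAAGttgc
Rpl31, chr1:39367834-39367870, plus strand: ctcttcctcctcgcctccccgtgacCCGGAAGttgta
Rpl41, chr10:128549193-128549249, minus strand: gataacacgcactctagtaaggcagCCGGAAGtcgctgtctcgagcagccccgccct
Rps27l rose and the other two fell in the cerebellum against the cortex, as the following values show.

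The share of a library's counts that came from the members differed by region. In the cerebellum the lowest, median and highest shares over 29 libraries were 0.781%, 0.953% and 1.10%. Cortical libraries had 0.936%, 1.11% and 1.25%, and hippocampal ones 1.10%, 1.23% and 1.42%. The cerebellum was below the cortex in 27 of 29 mice, the cortex below the hippocampus in 26, and the cerebellum below the hippocampus in all 29, while the ranges of neighbouring regions overlapped. Groups within a region also differed: in the cerebellum, group means ran from 0.851% ± 0.072 (SD, n = 4) in naive 2-month mice to 1.03% ± 0.040 (SD, n = 3) in 22-month mice given plasma.

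**Figure D1:**
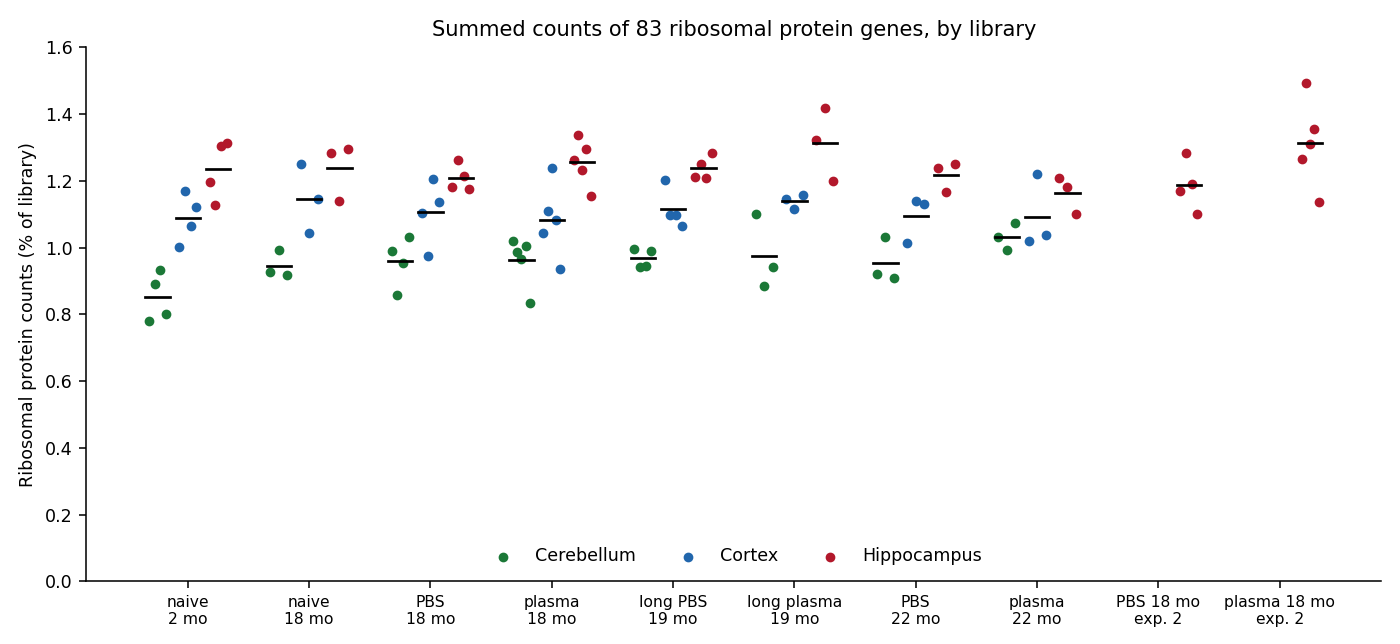
Share of each library's counts taken by the 83 ribosomal protein genes (y axis, percent), with libraries grouped by treatment and age in months on the x axis and coloured by region; each point is 1 library and each black bar a group mean. The cerebellum (0.781 to 1.10%) lies lowest and the hippocampus (1.10 to 1.42% in experiment 1) highest in all 8 groups of experiment 1.

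Which members were lower in the cerebellum was asked gene by gene, with edgeR's quasi-likelihood test over the 87 libraries of the first experiment and p-values adjusted by Benjamini and Hochberg over 19490 genes (threshold 0.05). Against the cortex, 74 of 80 tested members fell and 2 rose, with a median log2 change of -0.35, and 4 did not pass. Of all 19490 genes tested, 83.3% passed in either direction (43% higher, 40.3% lower), and their median was 0.02. Both subunits showed it: the median was -0.42 over the 31 small-subunit members and -0.33 over the 49 of the large subunit. Other genes with principal transcripts of at most 1000 bases had a median of 0.03. Log2 changes carry edgeR's TMM scaling, which sets the bulk of genes near 0. With scaling by total counts alone all changes between cerebellum and cortex shift up by 0.17. The CPM values given below are scaled by total counts alone and carry no TMM scaling.

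The largest falls were in Rpl12, part of the base of the stalk, at -0.86 ± 0.04 (SE), Rpl41 at -0.84 ± 0.05 and Rplp1 at -0.78 ± 0.04. Rps2, of the messenger RNA entry channel, followed at -0.76 ± 0.04, then Rpl37 and Rps21 (both -0.72 ± 0.06), and Rpl29 and Rps15 (both -0.66 ± 0.04). Adjusted p-values of these 8 lay between 5.5e-32 and 1.1e-16 by edgeR's quasi-likelihood test. The lowest, median and highest levels of Rpl12 were 43.9, 54.9 and 62.5 CPM in cerebellar libraries and 72.9, 86.99 and 109 CPM in cortical ones. The cerebellum was lower in 29 of 29 mice and the ranges did not overlap. Rplp1 had 114, 146 and 184 CPM there and 166, 226 and 252 CPM in cortical libraries, lower in every mouse with a small overlap of the ranges. Rps2 (83.03, 97.5 and 127 against 123, 145 and 182 CPM) and Rpl41 (87.1, 137 and 177 against 169, 216 and 276 CPM) were also lower in 29 of 29 mice.

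The members that rose in the cerebellum were both paralogs with low counts. Rps27l, the p53-inducible relative of Rps27, rose by 0.29 ± 0.06 (adjusted p 1.8e-05, edgeR), with 11.0, 14.7 and 22.8 CPM in cerebellar libraries and 7.82, 10.8 and 14.3 CPM in cortical ones. The cerebellum was lower in 1 of 29 mice, although the ranges overlapped. Rps27 itself fell by 0.64 ± 0.06 on the log2 scale, so the pair moved in opposite directions. Rpl7l1, a relative of Rpl7 with a role in ribosome assembly, rose by 0.23 ± 0.03 (adjusted p 8.3e-09, edgeR), with 42.6, 53.4 and 61.1 CPM against 34.5, 39.8 and 50.9 CPM, and was higher in all 29 mice. Rpl7 did not pass (-0.01 ± 0.03, adjusted p 0.77), and neither did Rpl18, Rps9 and Rps15a (0.03, -0.06 and 0.05). In the other pairs both genes fell: Rpl22 and Rpl22l1 by 0.21 and 0.20, and Rpl36a and Rpl36al by 0.57 and 0.33 on the log2 scale.

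The 3 stalk genes did not move alike in size. Rplp1 fell by 0.78, Rplp2 by 0.42 ± 0.05 and Rplp0, which anchors the stalk to the ribosome, by 0.10 ± 0.03 on the log2 scale. With scaling by total counts alone Rplp0 was called in the other direction (0.07 ± 0.03, adjusted p 0.0099, edgeR), Rpl7 (0.16 ± 0.03, adjusted p 1.1e-07) and Rps9 (0.11 ± 0.03, adjusted p 0.00092) were called higher, and Rps6 and Rpl5 were among the members that changed sign without a call. Rps6, the substrate of S6 kinase, fell by 0.13 ± 0.03, Rpsa, also known as a laminin receptor, by 0.61 ± 0.03, and Rpl4, of the exit tunnel wall, by 0.44 ± 0.02. In Rpsa the cerebellum (209 to 290 CPM) lay just below the cortex (292 to 421 CPM) with no overlap.

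Against the cortex, the hippocampus showed 63 members higher, 1 lower and 16 that did not pass, with a median of 0.14; 60.3% of all genes passed (29.9% higher, 30.3% lower), with a median of 0.00. Among the largest rises were Rpl3 (0.30 ± 0.02), Rps27l (0.30 ± 0.06), Rpl22l1 (0.27 ± 0.05), Rps28 (0.26 ± 0.07), Rps26 (0.25 ± 0.05), Rplp0 (0.24 ± 0.03) and Rpl35 (0.23 ± 0.05). Rpl3 had 523, 618 and 712 CPM in hippocampal, 442, 496 and 590 CPM in cortical and 361, 434 and 484 CPM in cerebellar libraries. The hippocampus was above the cortex in all 29 mice, and its range lay wholly above that of the cerebellum. The single fall was Rpl12, by 0.10 ± 0.04 on the log2 scale (adjusted p 0.024, edgeR), with 68.4, 82.2 and 105 CPM in the hippocampus. That difference is small against the ranges, and the cortex was below the hippocampus in 8 of 29 mice. In the 4 naive 2-month mice alone the median was 0.18, but 5 members passed. Without the libraries with low markers 62 passed. The share of all genes that passed is not given for either of these fits, so both counts stand without it and cannot be judged against it.

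The hippocampus and the cerebellum were farthest apart: 77 members were higher in the hippocampus, 1 was lower and 2 did not pass, with a median of 0.49, while 84.1% of all genes passed (40.9% higher, 43.2% lower) with a median of -0.02. Rpl41 rose by 1.02 ± 0.05, Rplp1 by 0.97 ± 0.04, Rpl37 by 0.92 ± 0.06, Rps2 by 0.91 ± 0.04, Rps21 by 0.83 ± 0.06, Rps27 by 0.82 ± 0.06, Rps28 by 0.81 ± 0.07 and Rps19, the gene mutated in Diamond-Blackfan anaemia, by 0.80 ± 0.04. Rpl41 ran from 213 to 379 CPM in the hippocampus and from 87.1 to 177 CPM in the cerebellum, with no overlap. The single fall was Rpl7l1, by 0.21 ± 0.03 on the log2 scale. Rpl13 (0.10 ± 0.09) and Rps27l (0.01 ± 0.06) did not pass. The 3 region comparisons share libraries, so their values stand side by side here and are not independent of one another. Beside the start sequences above, the median for the cerebellum against the cortex was -0.34 over 21 members with a pyrimidine run of at least 8 bases at the start and -0.40 over 39 without one. It was -0.41 over 24 members with CCGGAAG and -0.32 over 36 without, and for the hippocampus against the cerebellum 0.58 and 0.48.

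**Figure D2:**
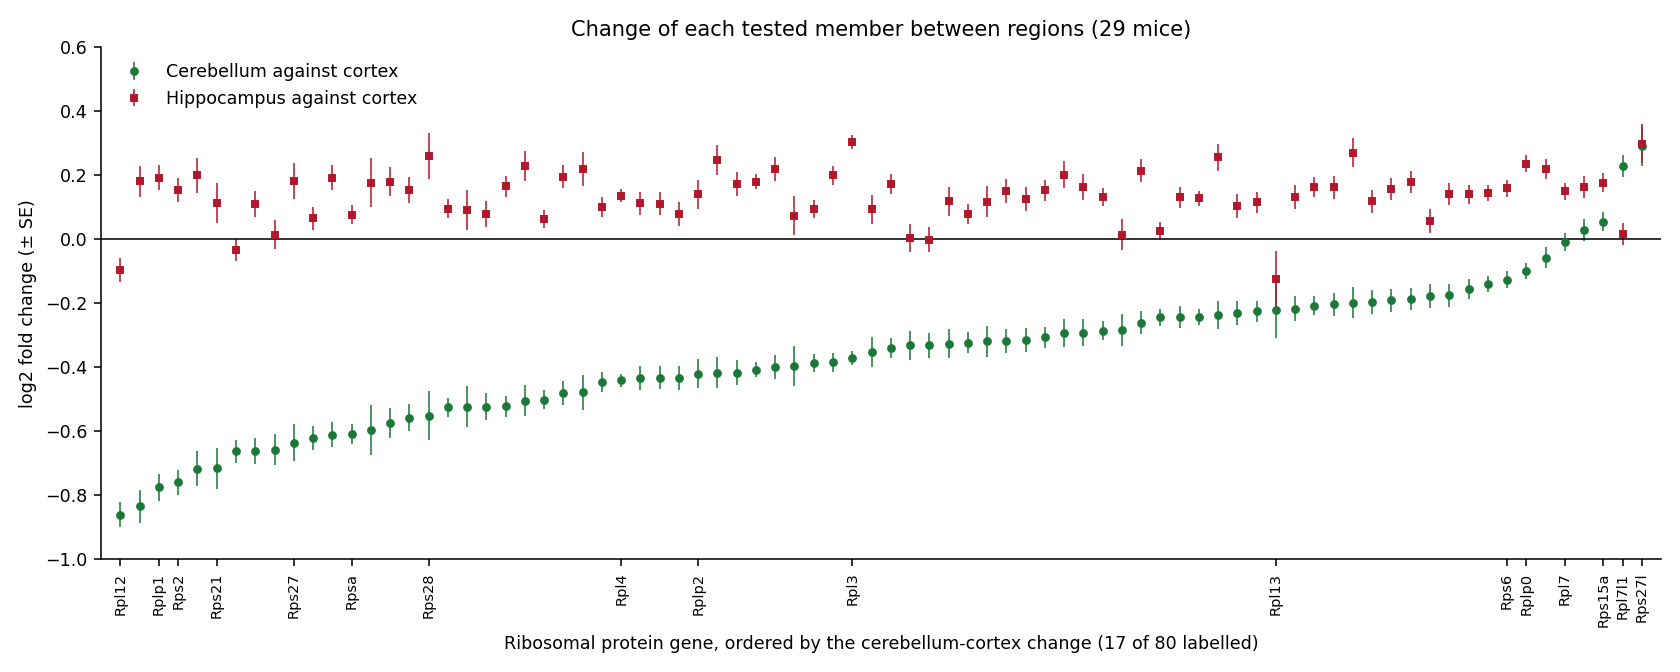
Log2 fold change with its standard error (y axis) for each of the 80 tested members (x axis, ordered by the cerebellum value, with some of the genes described here labelled) in cerebellum against cortex (green circles) and hippocampus against cortex (red squares), from 29 mice. Most green values lie below 0, from -0.86 for Rpl12 to 0.29 for Rps27l, while most red values lie above 0.

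Other genes of translation were counted from lists of their own. Of all 19490 genes, 43% rose and 40.3% fell in the cerebellum against the cortex (edgeR, adjusted p under 0.05). The counts of each list are to be read against those shares. In the cerebellum against the cortex, the 14 elongation and associated factors had 2 rises, 10 falls and a median of -0.25, and the 29 initiation factors had 10 rises, 14 falls and a median of -0.04. The 44 ribosome biogenesis genes had 17 rises, 15 falls and a median of 0.03, and the 25 regulators of ribosome production, such as Mtor and Larp1, had 14 rises, 6 falls and a median of 0.18. The 78 mitochondrial ribosomal protein genes had 19 rises, 44 falls and a median of -0.09. In the hippocampus against the cerebellum the medians were 0.28, 0.02, 0.05, -0.19 and 0.09 for the lists of 14, 29, 44, 25 and 78 genes. The 13 protein-coding genes of the mitochondrial genome also had 12 falls in the cerebellum against the cortex (median -0.57); their part in the members' result was not tested.

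With age and treatment, no member passed in any of the 20 comparisons or in the 6 tests of a difference between regions. By edgeR's quasi-likelihood test 0 of 80 were called each time, and between 0 and 46 had an unadjusted p under 0.05. Few genes passed in general. With age, 2.39% of all genes passed in cerebellum, 0.112% in cortex and 0.0719% in hippocampus, and with PBS at 22 against 18 months 0.157%, 0.00533% and 0%. The comparisons of PBS with no injection and the 11 of plasma with PBS within a region called 0% of all genes. Of the tests of a difference between regions, that of the age change called 0.041% (cortex minus cerebellum), 0.0513% (hippocampus minus cerebellum) and 0% (hippocampus minus cortex), and that of the plasma change called 0%.

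**Figure D3:**
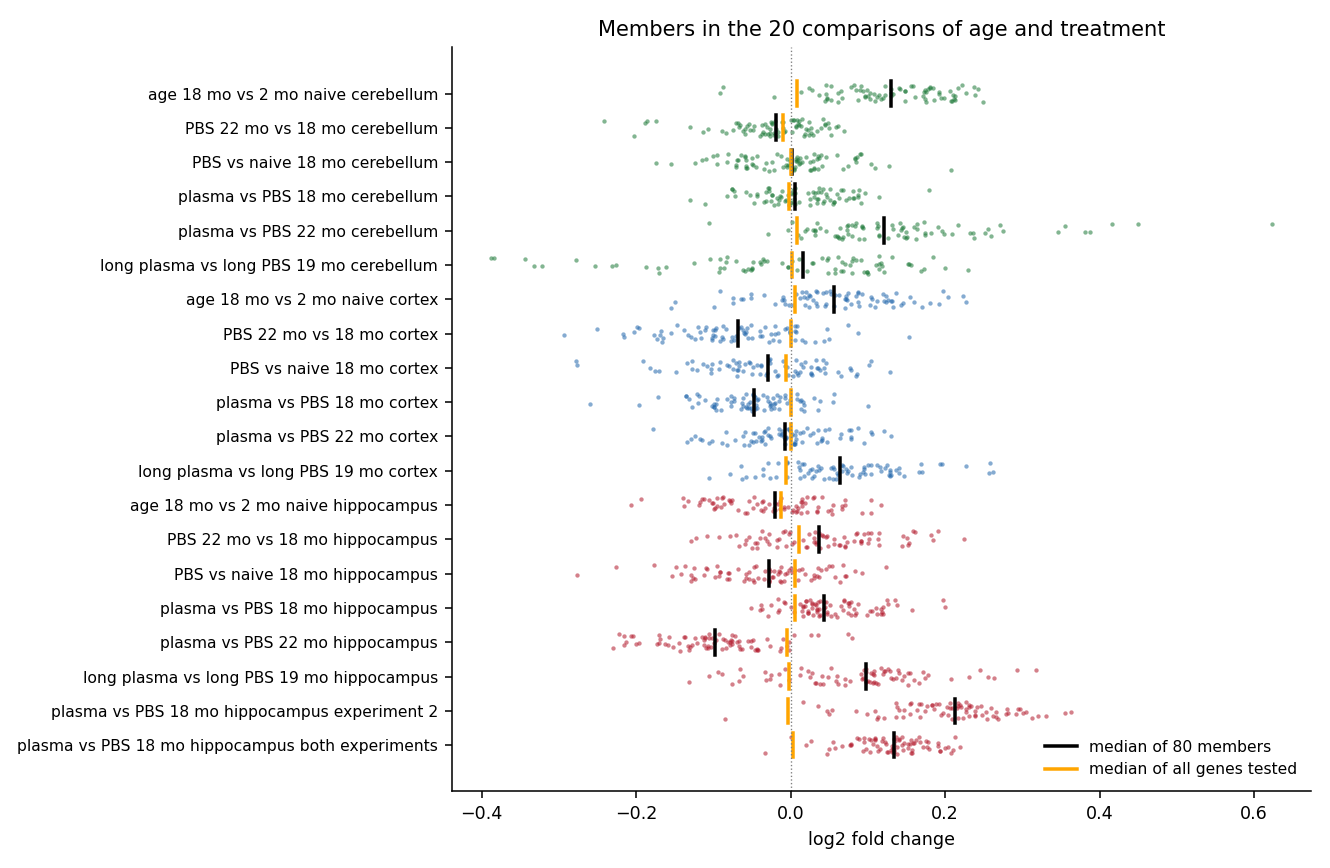
Log2 fold change (x axis) of each of the 80 tested members in the 20 comparisons of age and treatment (y axis), coloured by region, with black bars for the members' median and orange bars for the median of all genes tested. No point passed the test; the black bar is farthest from 0 for plasma in experiment 2 (0.21), and stands at 0.13 for plasma over both experiments and for age in the cerebellum.

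From 2 to 18 months in the naive cerebellum, 77 of 80 members had a positive change, with a median of 0.13 against 0.01 for all 17185 genes. Without the 18-month mouse number 6 the median was 0.08, and with the position of the animal number, described below, as a covariate it was 0.06. None passed (2.39% of all genes did), 12 had an unadjusted p under 0.05 in edgeR (15% of all genes), and DESeq2 and limma-voom also called 0, with 11 and 16 under 0.05. Shares of all genes are given for the main edgeR fits only, here and below. Counts of members from other tools and settings therefore stand without such a share and cannot be judged against it. Rpl10, which joins the large subunit late and is needed for subunit joining, had 99.9, 108, 108 and 94.5 CPM in the 2-month mice and 121, 133 and 117 CPM in the 18-month mice. All 3 older mice lay above all 4 younger ones, with a difference of 0.25 ± 0.07 (SE, adjusted p 0.071, edgeR). Rpl6 had 103, 123, 122 and 112 CPM against 138, 136 and 135 CPM (0.23 ± 0.08, adjusted p 0.11, edgeR). Rpl13a, known for a role outside the ribosome in silencing inflammatory messages, had 168, 204, 199 and 178 CPM against 221, 224 and 215 CPM (0.21 ± 0.08, adjusted p 0.17, edgeR). In both genes the groups did not overlap either. With total-count scaling, Rpl10 was called (0.28, adjusted p 0.038), and with a covariate for other short messages, described below, Rpl10 (0.24, adjusted p 0.030) and Rpl14 (0.20, adjusted p 0.043) were called.

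Other RNA moved with age in the same cerebellum libraries. The 10 microglia markers summed to between 153 and 169 CPM at 2 months and between 249 and 281 CPM at 18 months. The 12 choroid plexus and ependyma markers summed to between 37.4 and 1132 CPM at 2 months and between 1116 and 1560 CPM at 18 months. All markers of both lists were detected in both groups, and their part in the members' values was not tested. The elongation factors had a median of 0.02 and the mitochondrial ribosomal protein genes a median of -0.03 in this comparison, with 0 of 14 and 0 of 78 called. In the cortex and hippocampus the members' median with age was 0.06 and -0.02. The difference in the age change between hippocampus and cerebellum had a median of -0.14 over the members, with 0 called (0.0513% of all genes were) and 0 at an unadjusted p under 0.05; limma-voom called 0 with 1 under 0.05. Between cortex and cerebellum the median was -0.07, but without the naive 18-month mouse number 6 it was 0.08.

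Young plasma against PBS at 18 months had its largest median in the hippocampus of the second experiment, where 79 of 80 members had a positive change and the median was 0.21, against 0.00 for all 17126 genes. None passed in edgeR (0% of all genes did), but 46 of 80 had an unadjusted p under 0.05, against 7.96% of all genes. DESeq2 called 1, Rpl13a (0.32, adjusted p 0.049), with 51 under 0.05, and limma-voom called 0 with 66 under 0.05. Rpl13a had 272, 288, 269 and 248 CPM with PBS and 310, 365, 323, 347 and 283 CPM with plasma. The lowest plasma mouse fell inside the PBS range, and the difference was 0.31 ± 0.08 (SE, adjusted p 0.58, edgeR). Rpl36al had 27.0, 31.8, 32.5 and 28.9 CPM against 36.9, 44.5, 37.5, 37.4 and 32.8 CPM (0.36 ± 0.10), with the groups just apart. Rpl24, which forms a bridge between the subunits, had 111, 124, 112 and 108 CPM against 134, 165, 136, 146 and 115 CPM (0.33 ± 0.09), with 1 plasma mouse inside the PBS range.

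In the first experiment the same comparison gave a median of 0.04 in the hippocampus, with 69 of 80 positive, 2 under an unadjusted p of 0.05 in edgeR (2.43% of all genes) and 0 called by edgeR, DESeq2 or limma-voom. The experiments share no animals: 68 of 80 members (85%) had the higher value with plasma in both, 12 had opposite signs and 0 were lower in both, while 58.2% of 17084 genes tested in both had the same sign. Members of 1 library move together, so these 68 are not separate observations. Fitted over the 18 libraries of both experiments, the median was 0.13 and 0 were called by edgeR, with 42 under an unadjusted p of 0.05 (9.84% of all genes). DESeq2 called 3 there: Rplp0 (0.15, adjusted p 0.015), Rps9 (0.21, adjusted p 0.017) and Rpl13a (0.21, adjusted p 0.049). Rplp0 in the second experiment had 212, 209, 220 and 190 CPM with PBS and 225, 245, 229, 226 and 227 CPM with plasma, without overlap. In the first it had 206, 218, 208 and 212 CPM with PBS and 233, 222, 252, 225 and 210 CPM with plasma, with 1 plasma mouse inside the PBS range. In the second experiment the summed nuclear and ribosomal RNA-linked list (Malat1, Neat1, Meg3, Gm42418, Lars2 and Rn7sk) ran from 50822 to 71754 CPM with PBS and from 66832 to 86618 CPM with plasma. Choroid plexus and ependyma markers ran from 45.2 to 3244 CPM with PBS and from 63.9 to 2700 CPM with plasma. Their part in the members' values was not tested.

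The remaining plasma comparisons had medians between -0.10 and 0.12. At 22 months the cerebellum stood at 0.12 (0 called by edgeR, DESeq2 and limma-voom, with 6, 4 and 9 under an unadjusted p of 0.05, and 2.28% of all genes in edgeR) and the hippocampus at -0.10 (0 called by all 3, with 2, 2 and 13 under 0.05, and 1.68% of all genes in edgeR). Rps29 had 118, 114 and 116 CPM with PBS and 197, 158 and 188 CPM with plasma in the cerebellum at 22 months, without overlap (0.62 ± 0.28, adjusted p 1 in edgeR over all 29 cerebellum libraries). When only these 6 libraries were fitted, Rps29 was called (0.61 ± 0.08, adjusted p 0.0040, edgeR). In that fit the spread of this gene in the other groups did not enter, and the filter and scaling also changed. Which of these mattered was not tested. Rps27l had 12.3, 12.8 and 13.5 CPM against 22.8, 17.8 and 16.4 CPM (0.45 ± 0.17), also without overlap. Long plasma against long PBS gave medians of 0.02, 0.06 and 0.10 in cerebellum, cortex and hippocampus. In the hippocampus, Rpl34 had 91.7, 89.4, 91.4 and 102 CPM with long PBS and 112, 110 and 104 CPM with long plasma, without overlap (0.21 ± 0.08, adjusted p 1, edgeR). PBS at 22 against 18 months gave medians of -0.02, -0.07 and 0.04, and PBS against no injection at 18 months gave 0.00, -0.03 and -0.03.

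How far members varied between mice went with the length of their messages. Over the 29 libraries of a region, the correlation across the 80 members between the SD of log2 CPM and transcript length was -0.63, -0.59 and -0.42 (Spearman) in cerebellum, cortex and hippocampus; genes are not independent replicates. Of the 8 most variable members, 6 had transcripts under 620 bases in each region, against 21 of all 80. Rps28, Rps29, Rpl38, Rpl39 and Rps21 were among the 8 in all 3 regions. Rps29 (chr12:69157722-69159186, minus strand, GRCm38, 3 exons) ran from 40.9 CPM through a median of 139 to 198 CPM in the cerebellum. The lowest came from long plasma mouse number 25, while the other 2 mice of its group had 184 and 132 CPM. Rps28 and Rpl38 were also lowest there, at 21.8 and 23.9 CPM, against 87.6 and 61.3 CPM and 71.9 and 51.5 CPM in the group's other mice. In that library the 21 members with short transcripts had a median log2 deviation of -0.36, the other 59 members -0.02, and 135 short genes that are not members -0.11. Each gene's deviation was taken from its own median over the region's libraries.

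The members moved with other short messages from library to library. For each library, the members' median deviation was set beside the median deviation of non-member genes with principal transcripts under 620 bases and a mean of at least 10 CPM (135 genes, 130 in the hippocampus of experiment 1). Pearson's r was 0.833, 0.855 and 0.763 in cerebellum, cortex and hippocampus (n = 29 each), and 0.986 in experiment 2 (n = 9). Spearman's rho was 0.853, 0.868, 0.800 and 1. Without the 2 libraries farthest from the median, r was 0.780, 0.831, 0.802 and 0.985, and after group means were removed it was 0.929, 0.876, 0.740 and 0.981. Both medians of a point come from the same library and so share its depth and preparation. These are descriptions, computed after the pattern was seen. With the short messages' median as a covariate, the members' median for plasma in experiment 2 went from 0.21 to 0.04 and the number under an unadjusted p of 0.05 from 46 to 3. For plasma over both experiments the median went from 0.13 to 0.03, and for plasma at 22 months in the cerebellum from 0.12 to 0.00. For age in the cerebellum it stayed at 0.12 against 0.13, with 2 members called. In experiment 2 the covariate nearly repeats the members' own median (r 0.986), so a fall of the median there followed from that relation. The fit with this covariate therefore cannot decide whether plasma changed the members. The other values with this covariate share that limit to the extent of their r.

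**Figure D4:**
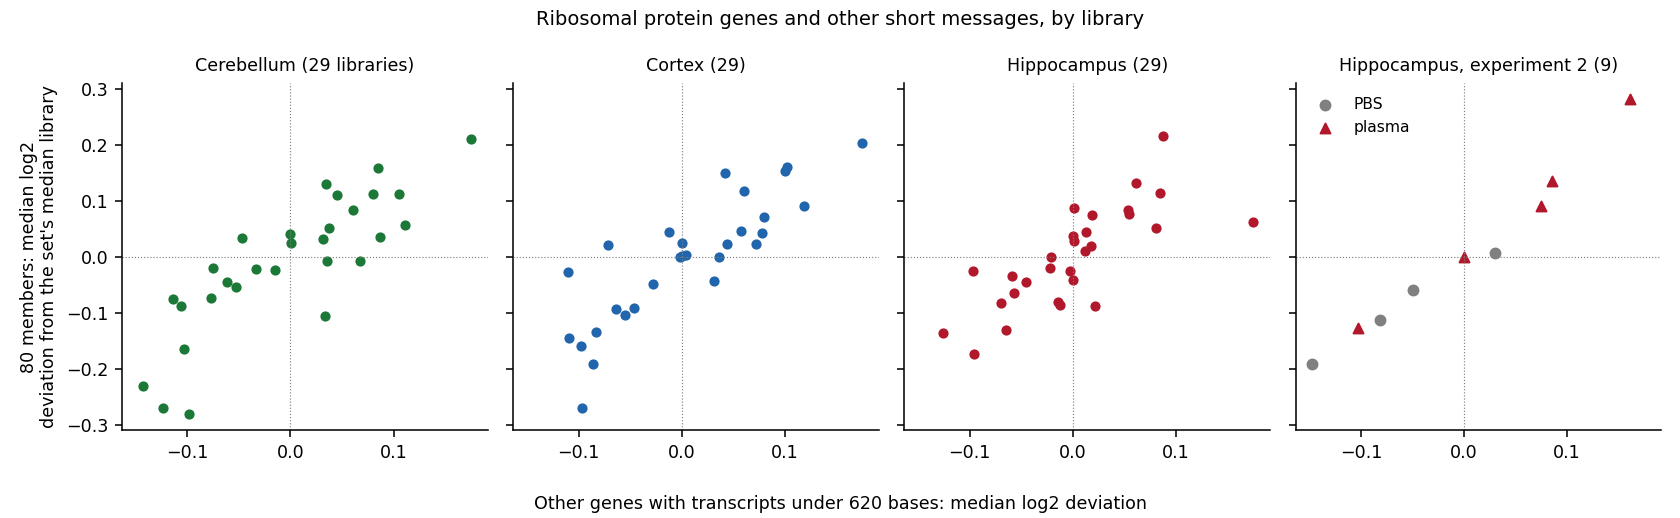
Each point is a library. The x axis gives the median log2 deviation of other genes with transcripts under 620 bases and the y axis that of the 80 tested members. Each gene's deviation is from its own median over the libraries of the panel's set. Points rise together in all 4 panels (Pearson's r 0.833, 0.855, 0.763 and 0.986); in experiment 2, PBS libraries are grey circles and plasma libraries red triangles.

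Rpl13 (chr8:123102350-123105244, plus strand, GRCm38, 6 exons) was among the 8 most variable members in every region. Its lowest, median and highest cerebellar levels were 166, 278 and 329 CPM. Cortical levels were 180, 269 and 391 CPM, and hippocampal levels 204, 234 and 372 CPM. Across the 29 mice its level was correlated between cerebellum and cortex (Pearson's r 0.669, Spearman's rho 0.661, permutation p 7e-05 and 1e-04) and between cortex and hippocampus (r 0.666, rho 0.596, permutation p 6e-05 and 0.00099), with Benjamini-Hochberg adjusted p 0.0084 for both r over 240 relations. Without the 2 mice farthest from the median, r was 0.632 and 0.620. Between cerebellum and hippocampus r was 0.318 (rho 0.334, adjusted p 0.54). The only other relation under 0.05 was Rpl4 between cerebellum and cortex (r 0.610, adjusted p 0.032), and within groups that r was 0.249.

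The Rpl13 level followed the animal number in the labels. In consecutive runs of 8 numbers, the cortex mean was 192 CPM at the first position (4 mice) and 362 and 355 CPM at the seventh and eighth (3 mice each). In the cerebellum the mean went from 184 to 317 CPM and in the hippocampus from 238 to 339 CPM between the first and the eighth position. The hippocampal course was not a steady climb. Its means lay between 220 and 254 CPM from the second to the sixth position, and the seventh had 301 CPM. Position went with 87.7% of the variance of Rpl13 in the cortex, rank 5 of 18769 genes, with 59.8% in the cerebellum (rank 88 of 17185) and with 66.7% in the hippocampus (rank 98 of 18070). The median over all genes was 26.2%, 24.53% and 25.8%, and over the 80 members 46.2%, 31.98% and 43.1%. Within positions, r between cerebellum and cortex was 0.026, and between cortex and hippocampus 0.406. The labels do not say what the numbers stand for beyond naming the animal, the runs of 8 were chosen after the values were seen, and what moves with them was not tested.

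**Figure D5:**
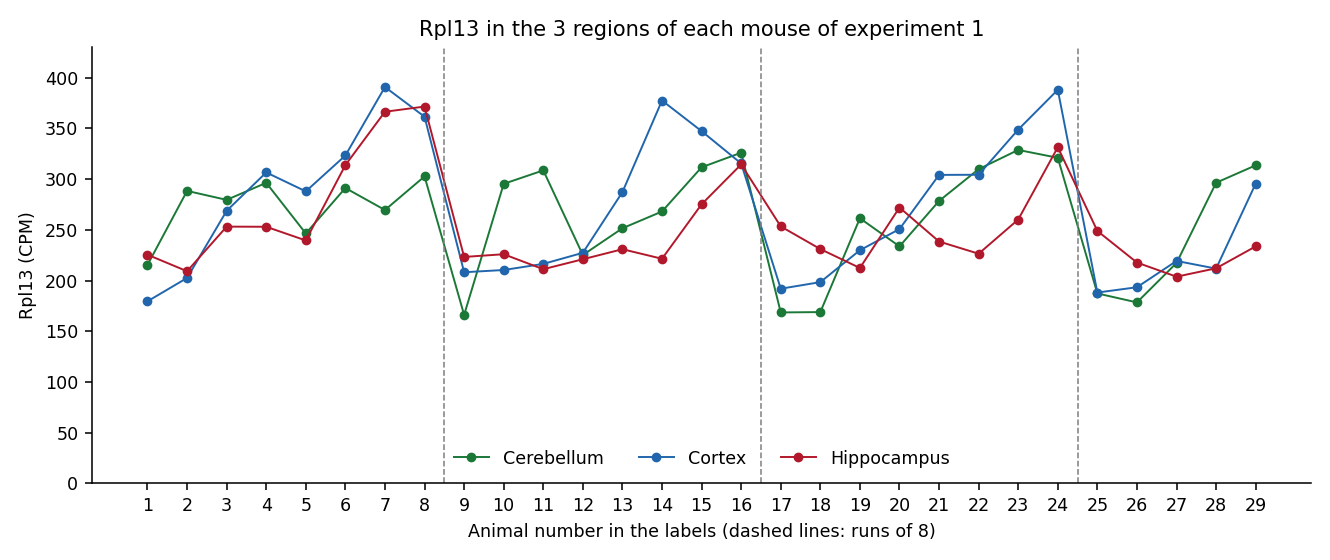
Rpl13 in CPM (y axis) in the cerebellum, cortex and hippocampus library of each of the 29 mice of experiment 1, by animal number (x axis), with dashed lines after each run of 8 numbers; lines join points for reading only. In the cortex (180 to 391 CPM) levels are lowest at the start of each run and highest late in each full run.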

How the data were processed

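Libraries were made from total RNA (RNeasy) with Smart-Seq2 and Nextera XT and were unstranded, per the labels' protocols, so reads of overlapping antisense genes cannot be told apart. Trim Galore 0.3.7, STAR 2.5.3a, DESeq2 and the build GRCm38 are named in the submitters' processing notes; the counting tool and annotation are not given in the sources used here. The authors deposited raw counts per gene as whole numbers for 96 libraries, used here as they stand. Members and lists were chosen with earlier results of these data known.

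Group comparisons used edgeR 4.0.16 (quasi-likelihood test, TMM scaling, filterByExpr with a minimum count of 10) in R 4.3.3, fitted over all genes and all groups of a region (29 libraries), over the 9 libraries of experiment 2, or over all 87 libraries of experiment 1 for regions; p-values were adjusted by Benjamini and Hochberg and called under 0.05. Standard errors are the log2 change divided by the root of F. CPM are counts per 1000000 counts of the library. Lengths are those of GENCODE M21 principal transcripts (all 83 members matched). The test was checked on simulated counts. Correlations of Rpl13 used 100000 permutations. The named members were the 8 largest called changes per direction in a region comparison, the 3 smallest p-values elsewhere, and followed members (stalk genes, Rpsa, Rps6, Rps27a, Rpl4, Rpl38, Rps29 and paralog pairs); Rpl13, Rps28 and other members named for their spread were picked after their values were seen. Some genes that these rules name are not reported here.

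The 3 regions of experiment 1 come from the same mice per the labels' animal numbers, so the numbers pair the libraries; the median correlation of same-mouse deviations was 0.035, 0.027 and 0.060 for the region pairs. No 2 libraries held identical counts. Where nothing else is stated, each library is 1 animal. Alternatives were DESeq2 1.42.0, limma-voom with quality weights (limma 3.58.1), other scalings and filters, left-out libraries, the mouse as a block, and covariates for short messages and animal number added after seeing the data.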

Additional observations from a re-analysis of the deposited data

Results flagged for a closer look

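Over 67 sets of values (a group of 4 to 10 libraries and a measure) tested for a library apart from the rest, 2 had one, where chance gives about 1 in 20. In the cerebellum of 18-month mice given plasma, mouse number 13 had 8342.85 CPM summed over the 83 ribosomal protein genes, while the other 4 mice lay between 9672.27 and 10199.1 CPM. In the hippocampus of 18-month mice given PBS in experiment 1, mouse number 11 had 134.601 CPM of Rps6, the substrate of S6 kinase, while the other 3 lay between 139.402 and 140.289 CPM.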

How the results depend on the processing

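Of 586 alternative values for the number of members called, 580 stayed within 1.5 times the reported count and 6 did not. In all comparisons of age and treatment the reported count was 0, so staying within that limit there means 0 again. Few genes passed in those comparisons in general. For age in the cerebellum, where edgeR called 0, scaling by total counts called 1 (Rpl10) and the covariate for other short messages 2 (Rpl10 and Rpl14). For plasma at 22 months in the cerebellum, a fit of the compared groups alone called 1 (Rps29, adjusted p 0.0040). For plasma in the hippocampus, DESeq2 called 1 in experiment 2 (Rpl13a) and 3 over both experiments (Rplp0, Rps9 and Rpl13a). For the hippocampus against the cortex, the 4 naive 2-month mice called 5 members, all among the 64, with fewer libraries in the fit. Rpl12, at -0.10 with all mice, was at -0.02 there, and its call was also lost with total counts and without mouse 3, 18 or 27 (-0.09 each). The causes of the other shifts were not tested.

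The mouse as a replicate block, for libraries paired by animal, called 76, 65 and 78 members in cerebellum against cortex, hippocampus against cortex and hippocampus against cerebellum, against 76, 64 and 78 without it, and ended no call. Animal number position as a covariate gave 76, 69 and 79, and leaving out each mouse in turn gave 76 to 77, 58 to 68 and 78. With the position covariate the median for long plasma in the cerebellum, 0.02, was -0.11, for plasma at 22 months in the hippocampus, -0.10, it was 0.00, and for age in the cerebellum, 0.13, it was 0.06. With total counts the median was -0.18 for cerebellum against cortex and 0.34 for hippocampus against cerebellum (76 called). The median of all genes moved by 0.17 and -0.15. For cerebellum against cortex 64 were called, 60 of them among the 76 of the main fit, and 1 of these, Rplp0, had the opposite sign. Rpl7 and Rps9, called higher there, were not among the 76. Leaving out each library in turn, the median for age in the cerebellum ran from 0.08 to 0.18 and for plasma in experiment 2 from 0.16 to 0.27, with 0 called each time. For plasma at 22 months it was 0.07 and 0.20 in the cerebellum without PBS mouse 18 or 15, and -0.06 and -0.05 in the hippocampus without PBS mouse 18 or plasma mouse 22. Groups of 3 to 5 mice limit all comparisons of age and treatment.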
